A study of Mus musculus with 6 samples.

Results

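Chga encodes chromogranin A (CgA), the prohormone that CgA-KO mice lack. It lies on chromosome 12 among genes that a knockout allele could carry along when it is bred. The members described here are Chga and the 9 neighbours Cpsf2, Rin3, Lgmn, Golga5, Itpk1, Moap1, Ubr7, Btbd7 and Ddx24, listed by symbol with no threshold on their values, though with earlier results of these data known. All 10 were present among the 32212 rows of the deposited count table. The liver RNA came from 3 WT and 3 CgA-KO mice, all male, on a C57BL/6 background, 2 yr of age by the labels and fed a normal chow diet, with poly(A)-selected RNA of each mouse sequenced as 1 library. Both genotypes are given on the same background strain and share the sex, the age and the diet. The CgA-KO mice lack CgA in every tissue rather than in the liver alone. How the null allele was made, and from which strain its stem cells came, is not given in the sources used here. The comparison asked whether the neighbourhood of the disrupted gene differed in expression between the genotypes.

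CgA belongs to the granins, acidic proteins that are packed into the secretory granules of neuroendocrine cells and cut there into peptides such as pancreastatin and catestatin. The neighbours have unrelated roles. Cpsf2 is a subunit of the complex that cleaves pre-mRNA before polyadenylation, Rin3 activates the endosomal GTPase RAB5, Lgmn is the lysosomal protease legumain, and Golga5 is a golgin that tethers vesicles at the Golgi. Itpk1 phosphorylates inositol phosphates, Moap1 binds the apoptosis effector BAX, Ubr7 is a UBR-box protein, Btbd7 carries BTB domains, and Ddx24 is a DEAD-box RNA helicase of the nucleolus. A gene targeted in stem cells of one strain and bred onto another strain keeps a stretch of the original chromosome on either side, which is why flanking genes are examined in a knockout. Variants in the reads were not analysed here.

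In coordinates of GRCm38 the members run from Cpsf2, which starts at 101975988, to Ddx24, which ends at 103425830. Chga itself spans 102554969 to 102565028 on the plus strand. To its left lie Golga5 at 57.1 kb, Lgmn at 115 kb, Rin3 at 164 kb and Cpsf2 at 549 kb. To its right lie Itpk1 at 3.55 kb, Moap1 at 177 kb, Ubr7 at 193 kb, Btbd7 at 216 kb and Ddx24 at 843 kb. Itpk1 is thus by far the closest, and it is read from the opposite strand, so that the 2 genes end towards each other. Moap1 and Tmem251 start 101 bases apart on opposite strands, and Ubr7 and Gon7 start 164 bases apart. All of Moap1 lies inside Gm20604 on the same strand, and reads could have been split between the 2 rows, which makes Moap1 the least certain value of the group.

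Sequences are shown for the disrupted gene, for its closest neighbour and for the 2 neighbours whose RNA rose, so that a reader can compare their starts. Each is a RefSeq window of 300 bases on GRCm38.p6, with 250 bases before the annotated start and 50 after it, read in the direction of the gene. All 10 members had at least 1 window, 13 windows in all. Capitals mark letters searched on both strands, which were the CRE motif TGACGTCA, its variant TGACGTAA, the TATA box TATAAA, the E-box CACGTG, the GC box GGGCGG, the CCAAT box CCAAT, the ETS motif CCGGAA and the PU.1 motif GAGGAAGT.
Chga, chr12:102554691-102554990, plus strand: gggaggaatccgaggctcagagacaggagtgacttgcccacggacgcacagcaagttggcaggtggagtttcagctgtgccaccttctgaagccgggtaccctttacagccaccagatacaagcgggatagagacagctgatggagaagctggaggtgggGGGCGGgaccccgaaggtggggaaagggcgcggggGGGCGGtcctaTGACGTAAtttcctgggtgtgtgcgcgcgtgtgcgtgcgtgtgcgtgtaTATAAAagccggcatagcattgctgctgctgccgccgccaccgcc
Itpk1, chr12:102704820-102705119, minus strand: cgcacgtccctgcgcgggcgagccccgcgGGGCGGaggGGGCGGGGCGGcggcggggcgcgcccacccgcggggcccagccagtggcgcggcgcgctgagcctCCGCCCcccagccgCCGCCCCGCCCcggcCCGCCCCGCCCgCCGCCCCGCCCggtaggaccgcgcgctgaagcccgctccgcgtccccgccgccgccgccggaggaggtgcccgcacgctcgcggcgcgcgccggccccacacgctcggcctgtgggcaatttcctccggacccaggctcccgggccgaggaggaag
Lgmn, first start, chr12:102439679-102439978, minus strand: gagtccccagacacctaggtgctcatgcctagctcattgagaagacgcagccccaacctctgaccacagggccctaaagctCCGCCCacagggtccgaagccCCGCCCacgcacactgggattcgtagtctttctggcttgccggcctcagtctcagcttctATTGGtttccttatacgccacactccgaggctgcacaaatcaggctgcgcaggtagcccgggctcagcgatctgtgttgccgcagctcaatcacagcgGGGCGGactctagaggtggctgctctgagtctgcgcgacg
Lgmn, second start, chr12:102439043-102439342, minus strand: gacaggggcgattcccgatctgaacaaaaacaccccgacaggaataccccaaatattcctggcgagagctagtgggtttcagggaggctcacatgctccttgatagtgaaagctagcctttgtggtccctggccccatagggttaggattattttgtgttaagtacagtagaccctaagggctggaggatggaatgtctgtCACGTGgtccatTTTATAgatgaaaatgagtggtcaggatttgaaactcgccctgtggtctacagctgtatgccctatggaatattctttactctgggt
Ddx24, chr12:103425798-103426097, minus strand: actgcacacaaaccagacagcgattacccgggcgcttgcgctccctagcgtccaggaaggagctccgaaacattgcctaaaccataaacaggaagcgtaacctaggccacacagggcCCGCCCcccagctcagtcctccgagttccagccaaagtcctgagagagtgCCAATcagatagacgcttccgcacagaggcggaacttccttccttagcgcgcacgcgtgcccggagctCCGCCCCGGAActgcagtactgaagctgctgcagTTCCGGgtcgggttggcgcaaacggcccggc

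The Chga window held the CRE variant TGACGTAA, which 0.499% of all 32851 windows hold, together with TATAAA (13.6% of all windows) and 2 GC boxes. The TATAAA lies after the RefSeq start but before the GENCODE start of Chga at 102554969. Golga5 was the other member with TGACGTAA, and Moap1 was the one member with the palindrome TGACGTCA, found in 1.79% of all windows. The E-box CACGTG, present in 7.15% of all windows, stood in the second window of Lgmn, in both windows of Golga5 and in that of Btbd7. GC boxes stood in 10 of the 13 member windows and in 35.7% of all windows. CCGGAA (14.9% of all windows) and CCAAT (37.4%) each stood in 3 member windows, both in Ddx24 and Ubr7. GAGGAAGT, in 3.20% of all windows, was in none of them. CCGGAA and the PU.1 motif share the letters GGAA, and in Ddx24 a GC box and a CCGGAA share 1 base. The window of Itpk1 was the richest in G and C, with 85.3% against a median of 52.7% over all windows. A match describes the letters in these windows and not a site in use.

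The depth of the libraries ranged from 10558616 counts in WT replicate 1 to 31087453 counts in WT replicate 2. Levels are CPM, counts scaled to a common library size with TMM factors, and differences are log2 ratios of CgA-KO over WT (log2FC). Of all rows, 13867 had enough counts to be tested. Hepatocyte marker genes together held between 47523 and 94260 CPM in every library, as the tissue label calls for, and 0 of 10 of them were called between the genotypes. Summed markers of macrophages, monocytes and dendritic cells, neutrophils, T and NK cells and stellate cells were higher in every CgA-KO liver than in every WT liver, and these sums are given beside the genes they move with.

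Chga had 0 counts in all 3 WT libraries and 0 counts in all 3 CgA-KO libraries. At this depth a count of 0, which allows up to 3 counts, leaves room for up to 0.268 CPM in WT replicate 1 and 0.0950 CPM in CgA-KO replicate 2, a limit that covers counting error alone. Chga RNA was thus below detection in WT liver too and gives no check of the genotype labels. The other granins were as scarce. Chgb had 0, 0 and 1 counts in WT and 2, 1 and 2 counts in CgA-KO libraries, Scg2 had 3 counts in CgA-KO replicate 3 and 0 elsewhere, and Scg3 and Pcsk1n were at 0 throughout. Scg5 and Vgf had 1 count each over all libraries, so 0 of the 7 granins could be tested. The defining enzymes of catecholamine cells, Th and Dbh, were at 0 in every library. Among 7 enzymes that process prohormones, 5 were tested and, beside 8.6% of all genes, 1 rose. This was Pam, which amidates peptide hormones, with 15.05 ± 3.06 CPM in WT against 28.7 ± 5.30 CPM in CgA-KO livers (SD, n = 3 each), log2FC 0.94 (edgeR adjusted p = 0.0277). Furin, a proprotein convertase, had log2FC -0.26 (edgeR adjusted p = 0.405).

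All 9 neighbours had enough counts for the test. With edgeR (quasi-likelihood), 2 of the 9 were called at an adjusted p-value under 0.05, against 12.4% of all genes tested. Both, Lgmn and Ddx24, were higher in CgA-KO livers, a direction in which 8.6% of all genes were called, and 0 of the 9 were lower, against 3.84% of all genes. With scaling by library size alone, 86.6% rather than 69.1% of all called genes were higher. At an unadjusted p under 0.05 the same 2 neighbours passed, beside 29.1% of all genes. The remaining 7 were not called, and their median log2FC was 0.08, beside -0.01 over all genes tested. The genotypes did not overlap in 3 members, Lgmn, Ddx24 and Golga5, where 33.6% of all genes tested show such a separation. With 3 mice per genotype an exact permutation test, two-sided, reaches 0.1 at the lowest, and it gave 0.1 for these 3 and between 0.4 and 0.9 for the others. Without any single library the count of neighbours called fell from 2 to 1, since the call of Ddx24 was lost each time.

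**Figure D1:**
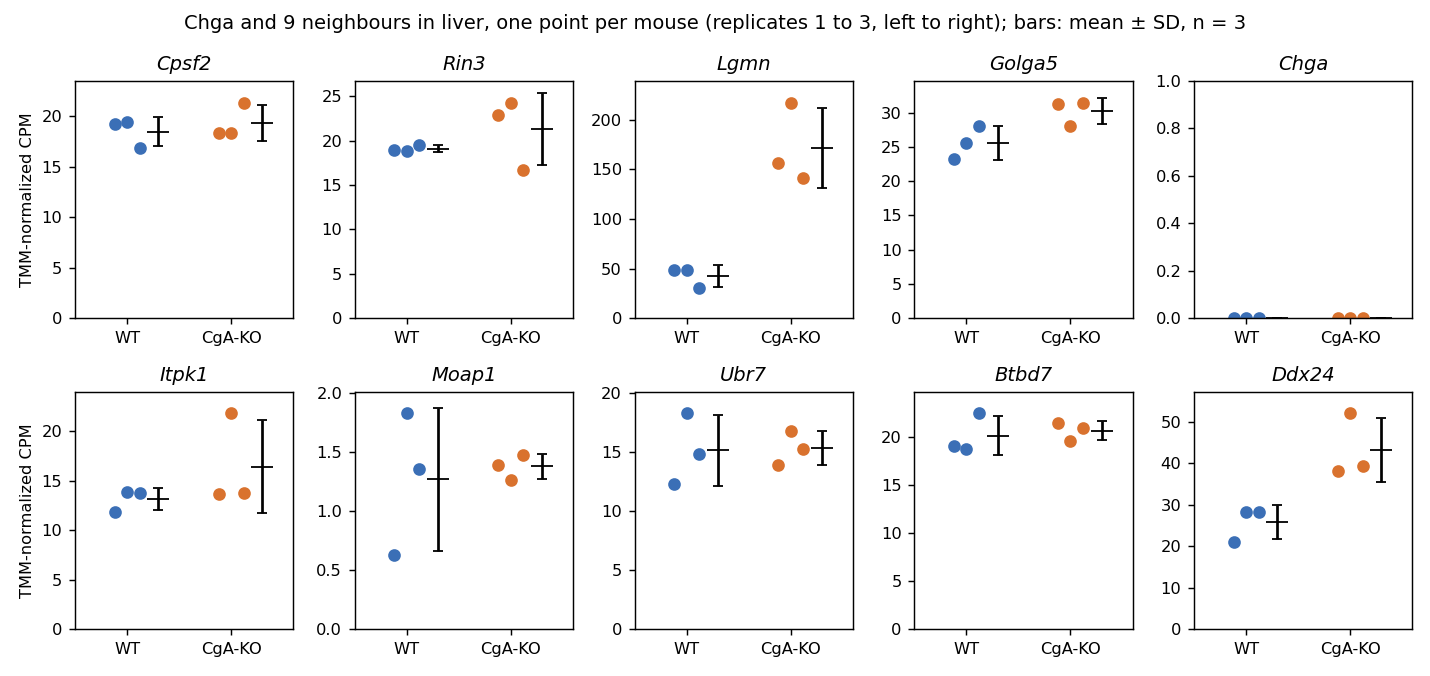
Levels of Chga and its 9 neighbours in TMM-normalized CPM (vertical axes, each from 0) in WT and CgA-KO livers, with 1 point per mouse and the mean ± SD of 3 mice beside the points. Lgmn and Ddx24 are higher in every CgA-KO liver than in every WT liver, Chga is at 0 in all 6, and the points of Cpsf2, Rin3, Itpk1, Moap1, Ubr7 and Btbd7 overlap.

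Lgmn, on the minus strand from 102394084 to 102439813, was the member with the largest difference. It held 48.4, 48.9 and 30.1 CPM in WT replicates 1, 2 and 3 and 156, 217 and 141 CPM in CgA-KO replicates 1, 2 and 3. Every CgA-KO liver lay far above every WT liver, and CgA-KO replicate 2 was the highest of all. The means were 42.5 ± 10.7 and 172 ± 40.3 CPM (log2FC 2.02, standard error 0.269, 95% interval 1.41 to 2.62, edgeR adjusted p = 0.00484), or 4.04-fold. Its counts ran from 541 to 1150 in WT and from 3153 to 6859 in CgA-KO libraries. Leaving out single libraries, the log2FC stayed between 1.81 and 2.17 and the adjusted p at or under 0.0257.

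Legumain cuts proteins after asparagine in the lysosome and matures several cathepsins there. Of 16 lysosomal proteases and their inhibitors, Lgmn included, 3 rose, 0 fell and 13 were not called, beside 12.4% of all genes called. The median log2FC of the 16 was 0.38 beside -0.01 over all genes. The other two that rose were Ctss, the cathepsin S of antigen-presenting cells, from 22.7 ± 9.94 to 184 ± 26.2 CPM (log2FC 3.02, edgeR adjusted p = 0.00322), and Ctsc, which activates granule proteases, from 62.8 ± 3.93 to 183 ± 33.4 CPM (1.54, edgeR adjusted p = 0.00484). Cathepsin B, Ctsb, had log2FC 0.98 with an edgeR adjusted p of 0.0553. At the other end, Tpp1, Ctsh, Ctsf, Dpp7 and Cstb had log2FC values between -0.11 and 0.01.

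**Figure D2:**
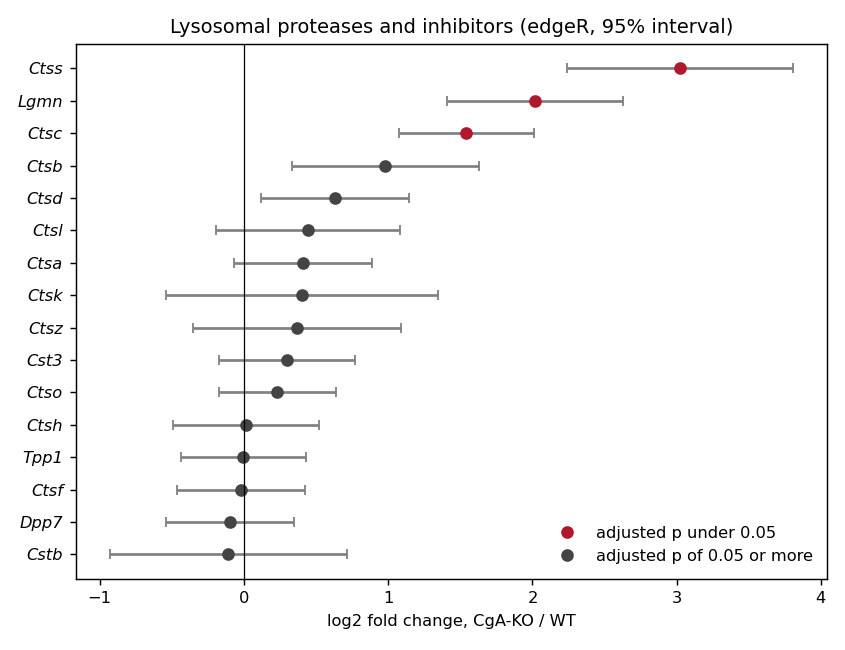
Log2 fold change of CgA-KO over WT (horizontal axis) with its 95% interval for 16 lysosomal proteases and inhibitors, ordered by size, with genes called at an adjusted p-value under 0.05 in red. Ctss, Lgmn and Ctsc are the 3 that were called, and among the 13 others the intervals of Ctsb and Ctsd alone lie above 0.

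Legumain is abundant in macrophages, and markers of these cells moved in the same direction. Of 12 marker genes of Kupffer cells and macrophages, 11 rose and 0 fell, beside 8.6% and 3.84% of all genes. The median log2FC of the 12 markers was 3.03. Their summed level ran from 154 to 387 CPM in WT and from 1542 to 2239 CPM in CgA-KO libraries, and none of them was at 0. In WT replicates 1, 2 and 3 the sums were 387, 185 and 154 CPM, and in CgA-KO replicates 1, 2 and 3 they were 2239, 2059 and 1542 CPM. Replicate 3 was the lowest of its genotype both in this sum and in Lgmn, while the highest sum and the highest Lgmn value fell in different libraries. Markers of monocytes and dendritic cells summed to between 27.4 and 132 CPM in WT and between 307 and 586 CPM in CgA-KO libraries. The part of these cells in the difference in Lgmn was not tested. In RNA of whole tissue, more cells of a type and more RNA per cell cannot be told apart.

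Over the 6 libraries, the genes whose log2 CPM followed that of Lgmn most closely were Crybg1 (Pearson r = 0.998), Metrnl (r = 0.998) and Pld3 (r = 0.998), which encodes a nuclease of the lysosome. Pld3 rose from 14.3 ± 2.11 to 28.9 ± 2.42 CPM and Metrnl from 2.62 ± 0.450 to 7.998 ± 1.15 CPM. These correlations describe 6 points that fall into 2 genotypes.

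Ddx24, on the minus strand from 103407982 to 103425830, was at 21.03, 28.2 and 28.3 CPM in WT replicates 1, 2 and 3. It was at 38.1, 52.1 and 39.5 CPM in CgA-KO replicates 1, 2 and 3. The genotypes did not overlap, and CgA-KO replicate 2 was again the highest. The means were 25.8 ± 4.16 and 43.2 ± 7.73 CPM (log2FC 0.74, standard error 0.200, 95% interval 0.29 to 1.19, edgeR adjusted p = 0.0440), or 1.67-fold. The direction held without each library in turn, with log2FC values between 0.62 and 0.86, but the adjusted p then lay between 0.0617 and 0.123. The call of Ddx24 thus rests on all 6 libraries, unlike that of Lgmn.

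DEAD-box helicases of the nucleolus unwind RNA during ribosome assembly. Of 13 such genes, Ddx24 included, 2 rose, 0 fell and 11 were not called, beside 12.4% of all genes called. The median log2FC of the 13 was 0.29, beside -0.01 over all genes, and 12 of the 13 lay above 0. Besides Ddx24, the one called was Ddx21, from 27.8 ± 4.98 to 46.7 ± 8.20 CPM (log2FC 0.74, edgeR adjusted p = 0.0453). Ddx18 followed at 0.61 with an edgeR adjusted p of 0.0766, and Ddx47, Ddx49, Ddx51, Ddx55 and Ddx56 lay between -0.06 and 0.08. The genes closest to Ddx24 in pattern over the 6 libraries were Aqr (r = 0.998), a helicase-like protein of the spliceosome, Smg8 (r = 0.994), which acts in nonsense-mediated decay, and 5730420D15Rik (r = 0.990). Of these, Aqr (log2FC 0.41, edgeR adjusted p = 0.162) and Smg8 (0.30, edgeR adjusted p = 0.396) were not called.

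Neither of the members nearest to Chga was called. Golga5, the nearest to the left, was at 23.2, 25.6 and 28.1 CPM in WT and at 31.3, 28.1 and 31.5 CPM in CgA-KO replicates 1, 2 and 3. The lowest CgA-KO liver lay just above the highest WT liver, so the genotypes touched without overlapping. The log2FC was 0.24 (95% interval -0.12 to 0.60, edgeR adjusted p = 0.358). Itpk1, the nearest to the right, was at 11.8, 13.8 and 13.8 CPM in WT and at 13.7, 21.8 and 13.8 CPM in CgA-KO replicates 1, 2 and 3. A single liver, CgA-KO replicate 2, stood apart, and the other 5 fell between 11.8 and 13.8 CPM. The log2FC of Itpk1 was 0.32 (95% interval -0.20 to 0.85, edgeR adjusted p = 0.399). Leaving out CgA-KO replicate 2 lowered it to 0.10.

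That library differed from the other CgA-KO libraries in markers of neutrophils and of T and NK cells as well. The summed level of 8 neutrophil markers was 368 CPM in CgA-KO replicate 2, against 27.2 and 32.9 CPM in CgA-KO replicates 1 and 3 and at most 9.99 CPM in WT. The sum of 8 T and NK cell markers was 143 CPM there, against 51.2 and 43.3 CPM in the other CgA-KO libraries and at most 14.1 CPM in WT. Other blood cell markers did not follow. The sum of 6 B cell markers was 38.1 CPM there, against 114 and 45.5 CPM in CgA-KO replicates 1 and 3. For 7 monocyte and dendritic cell markers it was 514 CPM, against 586 and 307 CPM. CgA-KO replicate 2 was the highest library of its genotype for Lgmn, Ddx24, Itpk1, Rin3 and Ubr7, and the lowest for Golga5, Moap1 and Btbd7. Without this library Lgmn had a log2FC of 1.85 with an edgeR adjusted p of 0.0177, and Ddx24 had 0.62 with an edgeR adjusted p of 0.0912. The part of these cells in any of the values was not tested.

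Rin3, the next member beyond Lgmn, was at 19.0, 18.8 and 19.6 CPM in WT and at 22.9, 24.3 and 16.7 CPM in CgA-KO replicates 1, 2 and 3. The CgA-KO livers lay on both sides of a narrow WT range, and the log2FC was 0.16 (95% interval -0.28 to 0.59, edgeR adjusted p = 0.639). Rin3 and Lgmn are adjacent members, so that an uncalled gene with an interval up to 0.59 borders on one whose interval starts at 1.41. Cpsf2, the farthest member to the left, was at 19.2, 19.4 and 16.8 CPM in WT and at 18.3, 18.3 and 21.4 CPM in CgA-KO livers, with a log2FC of 0.07 (95% interval -0.32 to 0.45, edgeR adjusted p = 0.839). It overlaps Ndufb1-ps, the GENCODE name of Ndufb1, on the opposite strand, and whether the counting used strand is not stated.

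On the right side, Ubr7 was at 12.3, 18.3 and 14.9 CPM in WT and at 13.9, 16.8 and 15.2 CPM in CgA-KO livers (log2FC 0.01, 95% interval -0.45 to 0.48, edgeR adjusted p = 0.971). Btbd7 was at 19.2, 18.8 and 22.5 CPM in WT and at 21.5, 19.7 and 20.96 CPM in CgA-KO livers (log2FC 0.04, 95% interval -0.34 to 0.42, edgeR adjusted p = 0.910). The CgA-KO range lay inside the WT range for both genes. Moap1 was the scarcest member, with 7, 43 and 32 counts in WT and 30, 40 and 33 counts in CgA-KO libraries, and its log2FC of 0.08 had an interval from -0.94 to 1.11 (edgeR adjusted p = 0.928). A change by up to 2.16-fold in Moap1 therefore could not be told from none at this depth. For the 6 other neighbours without a call, the intervals together reached from -0.45 to 0.85, at most 1.80-fold higher, so that a difference as large as that in Lgmn lay outside the interval of each of them.

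**Figure D3:**
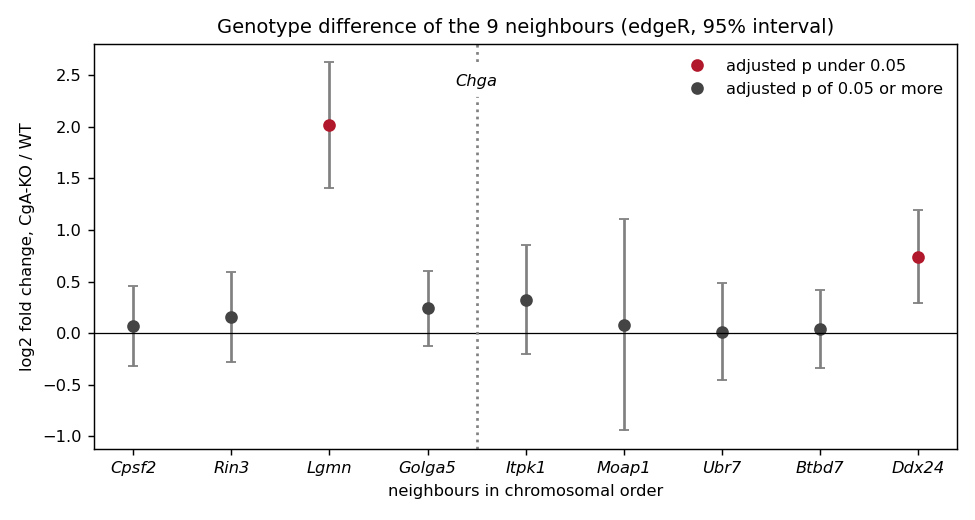
Log2 fold change of CgA-KO over WT (vertical axis) with its 95% interval for the 9 neighbours in the order in which they lie on chromosome 12, with the place of Chga marked by a dotted line. The intervals of Lgmn and Ddx24, in red, lie above 0, and those of the other 7 include 0.

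Levels were also compared per kb of merged exon length. In WT livers Lgmn was the highest member, at 18.3 ± 4.604 CPM per kb, followed by Golga5 at 7.43 ± 0.716 and Ubr7 at 4.64 ± 0.927 CPM per kb. Itpk1 stood at 3.96 ± 0.344, Cpsf2 at 3.23 ± 0.249, Ddx24 at 3.13 ± 0.505 and Rin3 at 2.80 ± 0.0583 CPM per kb. The lowest were Btbd7 at 1.23 ± 0.124 and Moap1 at 0.956 ± 0.456 CPM per kb, with Chga at 0. Neighbours in this order that overlapped among the WT livers were Ubr7 with Itpk1, Cpsf2 with Ddx24, Ddx24 with Rin3 and Btbd7 with Moap1. In CgA-KO livers Lgmn reached 73.9 ± 17.3 CPM per kb, and Ddx24, at 5.24 ± 0.938 CPM per kb, came after Lgmn and Golga5 (8.79 ± 0.544 CPM per kb), with livers that overlapped those of Itpk1 and Ubr7. The merged exon length counts every annotated isoform, which lowers the value of genes with many or long isoforms such as Btbd7.

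Genes that act with each neighbour, or that share its domain or family name, were counted as well. Of 18 cleavage and polyadenylation factors, Cpsf2 included, 0 were called, beside 12.4% of all genes, and their median log2FC was -0.01. The most changed by p-value, Clp1, had -0.29 (edgeR adjusted p = 0.432). Of 14 golgins and Golgi matrix genes 0 were called, with a median of -0.07, and 0 were called of 7 UBR-box proteins (median -0.08) and of 7 Btbd genes (median 0.04).

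The median log2FC of 12 activators and partners of RAB5 was 0.07, beside -0.01 over all genes. Of the 12, beside 8.6% higher and 3.84% lower over all genes, 2 rose and 0 fell. They were Rab31, a RAB5-like GTPase, from 3.77 ± 1.69 to 16.9 ± 5.04 CPM (log2FC 2.19, edgeR adjusted p = 0.0108), and Rin2, the paralog of Rin3, from 11.9 ± 0.711 to 26.5 ± 7.94 CPM (1.15, edgeR adjusted p = 0.0173). Rin1, with 5 to 13 counts per library, had 0.38 (edgeR adjusted p = 0.736). Rin2 therefore differed between the genotypes, whereas Rin3, near Chga, was not called. The difference between the 2 paralogs was not tested. Of 18 kinases and phosphatases of inositol phosphates, 1 fell, 0 rose, and the median was -0.13. This was Impa1, which releases free inositol, from 57.1 ± 3.01 to 37.8 ± 3.69 CPM (log2FC -0.59, edgeR adjusted p = 0.0471).

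Of 15 genes of the BAX pathway, 4 rose and 1 fell, beside 8.6% and 3.84% of all genes. The median log2FC of the 15 was 0.29, beside -0.01 over all genes. Bak1, the effector related to BAX, rose from 11.4 ± 1.70 to 25.3 ± 2.35 CPM (log2FC 1.15, edgeR adjusted p = 0.00835). Pmaip1 rose from 1.17 ± 0.914 to 6.35 ± 1.74 CPM (2.53, edgeR adjusted p = 0.0230) and Bcl2l11 from 6.04 ± 1.80 to 14.7 ± 4.14 CPM (1.28, edgeR adjusted p = 0.0248), both triggers of apoptosis. The other 2 called were Bcl2 (3.09), which protects from apoptosis and also rose, and Bik (-1.06), which promotes it and fell. Bcl2 was at 51.4 CPM in CgA-KO replicate 2 and at 11.8 and 5.29 CPM in the other CgA-KO livers. Moap1 was not among them.

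The region around Chga was then counted as a whole. Within 1 Mb on either side, 24 genes were tested and 3 were called, all higher in CgA-KO livers, a share of 12.5% beside 12.4% of all genes. The third, besides Lgmn and Ddx24, was Fbln5, an elastic fibre protein 736 kb to the left, which rose from 2.36 ± 0.685 to 14.9 ± 5.26 CPM (log2FC 2.68, edgeR adjusted p = 0.00466). Stellate cell markers, of cells that make matrix, summed to between 147 and 201 CPM in WT and between 271 and 419 CPM in CgA-KO libraries, and their part in Fbln5 was not tested. From Cpsf2 to Ddx24, 15 genes were tested and 2 were called. The median absolute log2FC within 1 Mb was 0.32, beside 0.37 over all genes tested. The comparison of shares depends on the libraries. Leaving out single libraries, 2 or 3 of the 24 genes within 1 Mb were called (8.33% or 12.5%). Their share was 8.33% beside 2.79% of all genes without WT replicate 3, and 8.33% beside 5.94% without WT replicate 2. It was 8.33% beside 5.24% without CgA-KO replicate 1, and 12.5% beside 6.98% without CgA-KO replicate 2. Without CgA-KO replicate 3 it was 8.33% beside 8.75%, and without WT replicate 1 it was 12.5% beside 14.9%.

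Within 2 Mb, 11 of 46 genes were called, or 23.9%, beside 12.4% of all genes. Of these, 8 were higher and 3 lower, beside 8.6% and 3.84% of all genes. Of the 11, 7 were Serpina genes or the pseudogene Gm8893, between 1253 and 1773 kb to the right of Chga. They included Gm8893, with a log2FC of 4.24, Serpina1e (-4.92), Serpina12 (-5.10) and Serpina3c (3.62), and the other 3 were Serpina3f (2.22), Serpina3g (2.41) and Serpina3m (1.02). Without the Serpina genes and Gm8893, 4 of 30 genes within 2 Mb were called, or 13.3%, beside 12.4% of all genes. The fourth, besides Fbln5, Lgmn and Ddx24, was Dglucy, which encodes D-glutamate cyclase and lies 1658 kb to the left. It fell from 37.4 ± 4.25 to 17.4 ± 1.90 CPM (log2FC -1.10, edgeR adjusted p = 0.00740). These shares also depend on the libraries. Without WT replicate 3, 9 of 46 genes within 2 Mb were called (19.6%) and 3 of the 30 (10%), beside 2.79% of all genes. Without WT replicate 1 the share within 2 Mb was 28.3% beside 14.9%. For the 30 genes the share was 10% beside 5.94% without WT replicate 2 and 10% beside 5.24% without CgA-KO replicate 1. It was 13.3% beside 6.98% without CgA-KO replicate 2, 10% beside 8.75% without CgA-KO replicate 3 and 13.3% beside 14.9% without WT replicate 1. Serpina genes are close paralogs among which reads could have been split.

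**Figure D4:**
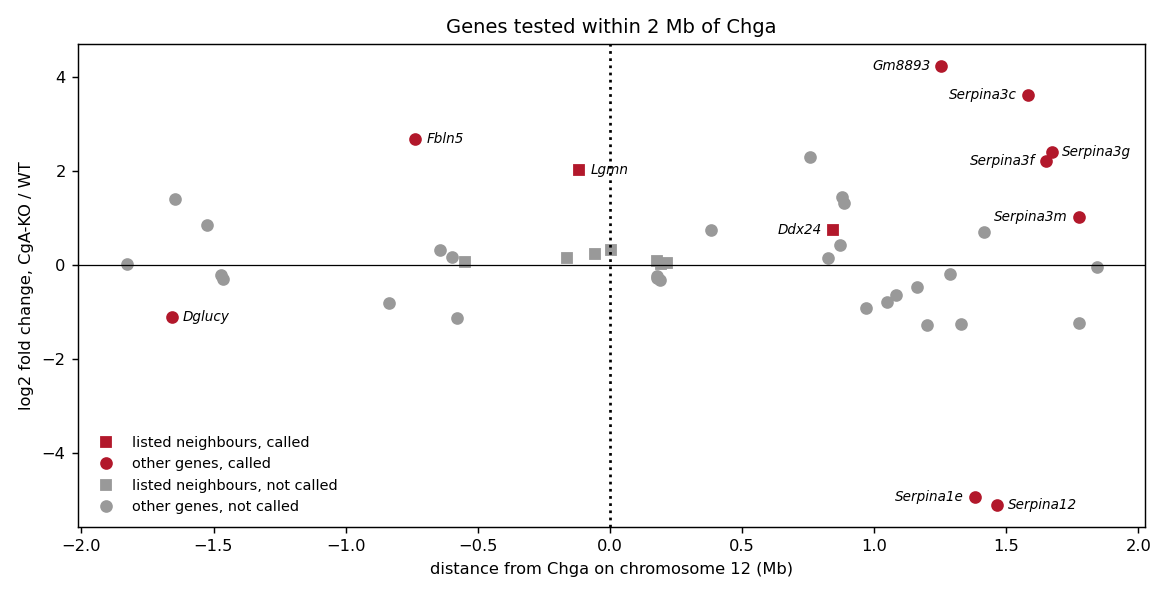
Log2 fold change of CgA-KO over WT (vertical axis) of the 46 genes tested within 2 Mb of Chga, by distance from Chga in Mb (horizontal axis, negative to the left), with squares for the listed neighbours and red for genes called. The 3 genes called within 1 Mb are Fbln5, Lgmn and Ddx24, and the group of called genes at the right edge holds the Serpina genes and Gm8893.

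Between 1 and 2 Mb from Chga, where the Serpina genes and Gm8893 lie, 8 of 22 genes tested were called (36.4%). Farther out the shares were lower than the 23.9% within 2 Mb. They were not all lower than the 12.5% within 1 Mb, or than the 13.3% within 2 Mb without the Serpina genes and Gm8893. Between 2 and 5 Mb from Chga 4 of 27 genes tested were called (14.8%), between 5 and 10 Mb 6 of 45 (13.3%), and over the rest of chromosome 12 42 of 362 (11.6%). Chromosome 12 as a whole had 63 of 480 genes called, or 13.1%, the ninth highest of 20 chromosomes. The shares ran from 10.1% on chromosome 16 to 15.1% on chromosome 1. These shares are descriptions without a test.

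**Figure D5:**
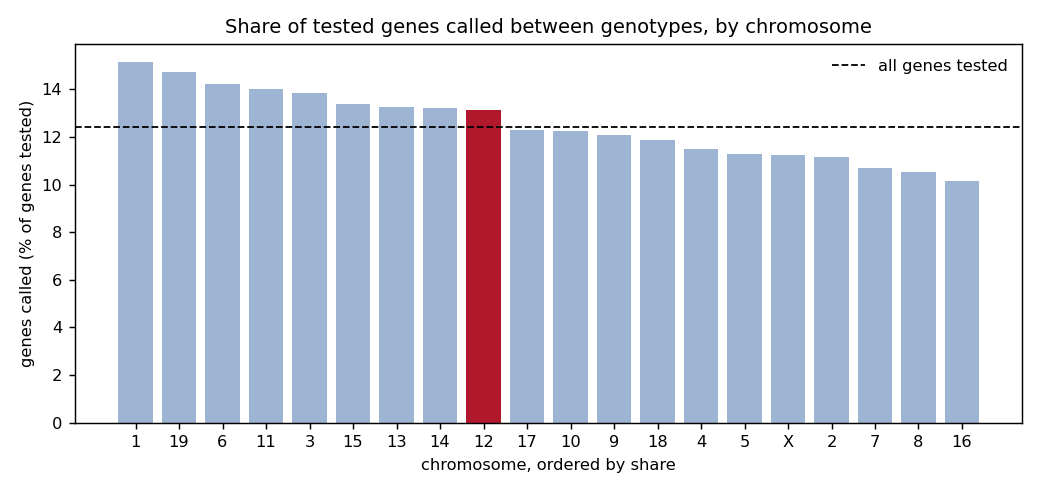
Share of tested genes called between the genotypes (vertical axis, percent) on each of 20 chromosomes, ordered by share, with chromosome 12 in red and the share over all genes as a dashed line. Chromosome 12, at 13.1%, stands in the middle of a range from 10.1% to 15.1%.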

How the data were processed

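Each of the 6 libraries (3 WT, 3 CgA-KO) holds poly(A) RNA of the liver of 1 mouse. The authors quantified reads with Salmon 1.4.0 per transcript, with GRCm38 as the reference transcriptome, and deposited whole-number counts per gene symbol, not scaled for depth. How transcripts were summed to genes is not stated. All 6 columns were mapped, and 0 were left without a sample.

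Counts were fitted with edgeR 4.0.16 in R 4.3.3, with filterByExpr (minimum count 10), TMM factors, robust quasi-likelihood, a two-sided test of genotype and Benjamini-Hochberg adjustment over 13867 genes. The labels number the replicates, and the authors give 3 mice of each genotype as the source of the RNA. The standard error was approximated from the F statistic (the size of the log2FC over its square root), and the 95% intervals use it. Positions and merged exon lengths come from GENCODE M21 of GRCm38, with RefSeq GRCm38.p6 for symbols that M21 lacks. Promoter windows are from RefSeq, build GRCm38.p6. DESeq2 1.42.0, limma 3.58.1 (voom), other scalings and filters, a replicate block and fits without each library were the alternatives. Shares of genes called near Chga without each library were added after the data were seen.

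The members and lists were chosen with earlier results of these data known. Named are all members, genes called within 2 Mb of Chga, up to 3 called genes of each list and the 3 genes closest in pattern to the 2 members with the smallest p. Other genes were picked after their values were seen. Besides the lists in the text, markers of 10 cell types were counted. Called of those tested were 4 of 6 for monocytes and dendritic cells, 2 of 3 for neutrophils, 5 of 8 for T and NK cells and 3 of 8 for stellate cells, all higher in CgA-KO. For sinusoidal endothelium 1 of 8 was higher and 1 lower, and 0 were called of 6 for B cells, 5 for cholangiocytes and 1 for neuroendocrine cells.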

Additional observations from a re-analysis of the deposited data

How the results depend on the processing

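Over all genes, 1726 were called, with 360 at an adjusted p under 0.01 and between 394 (without WT replicate 3) and 2126 (without WT replicate 1) with each library left out. DESeq2 called 2579. Without WT replicate 2 the count was 841, without CgA-KO replicate 1 it was 744 and without CgA-KO replicate 2 it was 976, and the cause was not tested. Scaling by library size alone moved the all-gene median log2FC from -0.01 to 0.26 and the share of called genes that were higher from 69.1% to 86.6%, and on that scale Lgmn had 2.29 and Ddx24 1.03. The count of neighbours called was 1 at an adjusted p under 0.01 and 1 without each library in turn, because Ddx24 was lost, and 2 in the 7 other settings. Within 2 Mb of Chga, DESeq2 called 20 of 57 genes fitted, 10 of them lower, beside 2579 of 19693 over all genes. The cause was not tested. Leaving out each library gave 9 to 13 there, and a distance of 1 Mb gave 3. Among neighbours without a call the sign changed for Ubr7 with DESeq2 (-0.0104), and without single libraries for Ubr7 (-0.0740 to 0.17), Moap1 (-0.17 to 0.43), Cpsf2 (-0.00353 to 0.142) and Btbd7 (-0.0127 to 0.12). Deviations from the genotype mean had correlations of 0.199, 0.0127 and -0.0659 between same-numbered libraries. Those between other libraries of the 2 genotypes ran from -0.264 to 0.234. With 3 libraries per genotype this cannot decide whether the numbers pair mice. With the replicate number as a block, 1498 genes, 2 neighbours (Ddx24 adjusted p = 0.0484) and 12 genes within 2 Mb were called. The filter on at least 10 counts in every library removed Moap1.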

Other observations

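Of the genes between Btbd7 and the Serpina genes that were not called, 3 had an edgeR adjusted p under 0.1, and they were picked with their values known. Asb2, a subunit of a ubiquitin ligase that lies 756 kb to the right of Chga, was at 10.8 and 12.0 CPM in CgA-KO replicates 1 and 3 and at 1.20 CPM in CgA-KO replicate 2. In WT livers it lay between 0.851 and 2.60 CPM, and its log2FC was 2.31 (edgeR adjusted p = 0.0825). CgA-KO replicate 2 thus fell within the WT range for Asb2, while it was the highest liver for Lgmn and Ddx24. The interferon-induced Ifi27l2a, 877 kb to the right of Chga and just beyond Ddx24, was at 7.43, 8.55 and 1.82 CPM in WT and at 14.9, 13.3 and 19.7 CPM in CgA-KO replicates 1, 2 and 3. The genotypes did not overlap, and the log2FC was 1.44 (edgeR adjusted p = 0.0831). Ppp4r4, a regulatory subunit of a protein phosphatase 967 kb to the right, was lower in CgA-KO livers without overlap, with 8.71 ± 2.18 CPM in WT against 4.64 ± 1.28 CPM (log2FC -0.91, edgeR adjusted p = 0.0812).

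Of the genes that lie at the start of a member or could share its reads, these 4 were tested and not called. Ndufb1, a subunit of complex I whose RefSeq span ends at 101975738, just before Cpsf2, was at 89.5, 222 and 104 CPM in WT and at 74.6, 35.5 and 79.8 CPM in CgA-KO replicates 1, 2 and 3. The genotypes did not overlap, and its log2FC was -1.13 (edgeR adjusted p = 0.105). Tmem251, which starts head to head with Moap1, averaged 7.87 ± 1.41 CPM in WT, against 6.73 ± 1.12 CPM in CgA-KO livers (log2FC -0.23, edgeR adjusted p = 0.579). Gon7, head to head with Ubr7, was at 4.32 ± 0.741 and 3.50 ± 0.261 CPM (log2FC -0.31, edgeR adjusted p = 0.501). Gm20604, which contains Moap1, had log2FC -0.28 (edgeR adjusted p = 0.616).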
